A study of Mus musculus with 4 samples.

Results

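The regions described here are stretches of open chromatin that all 4 ATAC-seq peak lists of the study contained, that lay over 1 kb from every annotated end of a protein-coding gene, and whose peaks covered fewer bases in both Snf5 CKO lists than in both Control lists. They were chosen by merging the peaks of the 4 lists wherever they overlapped by at least 1 bp on the 19 autosomes, which gave 62815 merged regions. A peak in every list was found in 18408 of these, and 7879 of the 18408 lay over 1 kb from all gene starts and ends and are called kept distal regions. Of the 7879, 3078 were shorter in both Snf5 CKO lists (39.1%) and are called the shortened regions. Another 964 (12.2%) were longer in both Snf5 CKO lists, and in the remaining 3837 the lengths of the groups overlapped. Because the rule used the covered lengths themselves, the lengths and fold enrichments of the shortened regions are given as a description without a test.

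ATAC-seq, which marks open DNA by the insertion of a transposase, was applied to germ cells of female C57BL/6 mouse embryos at embryonic day 15.5. The cells were sorted by an Oct4-EGFP reporter, which all groups carried. The Control group and the Snf5 CKO group (a conditional knockout of Snf5) had 2 libraries each, Control 1 and 2 and Snf5 CKO 1 and 2. Which allele and Cre driver were used, and what genotype the Control embryos had, is not given in the labels. Nor do the labels say whether libraries of a group are from different animals, and their spread may thus be technical only.

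Smarcb1 encodes Snf5, a core protein of the SWI/SNF complexes, which use ATP to slide and evict nucleosomes and thereby open enhancers and promoters. Open chromatin at an active promoter is usually widest where nucleosomes are cleared around the transcription start, and distal open sites are often enhancers bound by sequence-specific factors. Female germ cells enter meiosis in the fetal ovary under retinoic acid and BMP signalling, and many of their genes have CpG-rich promoters.

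The length of a peak at a transcript start is easiest to read against the sequence it covers, so the 250 bases before 6 starts inside shortened regions are shown first, 5′ to 3′ on the strand of the gene. The sequences are from RefSeq on mm10, and the genes were chosen after their values were seen, to cover the range from a start that both Snf5 CKO peaks missed to starts whose upstream side was covered in full in every list. Capitals mark the bases covered by a peak in all 4 lists. Mfsd7a, a transporter family gene (chr5:108449101-108449350, minus strand), and Igf2, which encodes a fetal growth factor (chr7:142658805-142659054, minus strand), have no such base. In Prkcz, which encodes an atypical protein kinase C (chr4:155345790-155346039, minus strand), 121 of the 250 bases were covered throughout. Control 1 covered 121 of them, Control 2 250, Snf5 CKO 1 132 and Snf5 CKO 2 152. The lower-case bases of Prkcz are thus those that Control 1 missed. In Tyro3, a receptor tyrosine kinase gene (chr2:119799264-119799513, plus strand), 197 were covered throughout, and only Snf5 CKO 1 covered fewer than 250. In Set, which encodes a histone chaperone (chr2:30066224-30066473, plus strand), and Spata22, a meiotic recombination gene (chr11:73329491-73329740, plus strand), all 250 were.
Mfsd7a: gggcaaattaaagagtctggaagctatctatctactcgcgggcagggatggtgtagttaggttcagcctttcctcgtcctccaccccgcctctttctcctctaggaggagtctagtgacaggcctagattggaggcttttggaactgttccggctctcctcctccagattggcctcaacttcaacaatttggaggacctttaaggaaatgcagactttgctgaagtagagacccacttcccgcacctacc
Igf2: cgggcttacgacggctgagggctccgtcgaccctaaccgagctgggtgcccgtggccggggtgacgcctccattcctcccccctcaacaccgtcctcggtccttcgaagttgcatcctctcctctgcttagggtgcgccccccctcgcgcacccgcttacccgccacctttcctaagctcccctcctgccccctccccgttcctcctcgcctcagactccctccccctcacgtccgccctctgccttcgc
Prkcz: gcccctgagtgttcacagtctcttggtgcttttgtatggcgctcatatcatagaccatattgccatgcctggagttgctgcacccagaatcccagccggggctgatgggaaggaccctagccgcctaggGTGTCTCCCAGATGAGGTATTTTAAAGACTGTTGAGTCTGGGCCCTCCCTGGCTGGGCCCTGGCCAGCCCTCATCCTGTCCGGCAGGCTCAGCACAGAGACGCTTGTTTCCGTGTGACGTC
Tyro3: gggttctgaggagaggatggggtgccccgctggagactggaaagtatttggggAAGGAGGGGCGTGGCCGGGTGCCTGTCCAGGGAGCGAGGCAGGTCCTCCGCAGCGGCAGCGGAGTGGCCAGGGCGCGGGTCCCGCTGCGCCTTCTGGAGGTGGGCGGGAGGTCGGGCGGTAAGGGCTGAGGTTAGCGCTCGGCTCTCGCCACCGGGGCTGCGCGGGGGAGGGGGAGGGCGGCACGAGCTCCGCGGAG
Set: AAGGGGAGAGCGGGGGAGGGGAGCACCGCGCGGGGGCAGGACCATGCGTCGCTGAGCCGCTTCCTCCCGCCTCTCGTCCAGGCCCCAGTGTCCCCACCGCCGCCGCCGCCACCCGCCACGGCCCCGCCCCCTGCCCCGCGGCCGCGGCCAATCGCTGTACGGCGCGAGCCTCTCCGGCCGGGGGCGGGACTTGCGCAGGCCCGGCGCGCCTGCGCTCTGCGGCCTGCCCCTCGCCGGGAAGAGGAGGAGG
Spata22: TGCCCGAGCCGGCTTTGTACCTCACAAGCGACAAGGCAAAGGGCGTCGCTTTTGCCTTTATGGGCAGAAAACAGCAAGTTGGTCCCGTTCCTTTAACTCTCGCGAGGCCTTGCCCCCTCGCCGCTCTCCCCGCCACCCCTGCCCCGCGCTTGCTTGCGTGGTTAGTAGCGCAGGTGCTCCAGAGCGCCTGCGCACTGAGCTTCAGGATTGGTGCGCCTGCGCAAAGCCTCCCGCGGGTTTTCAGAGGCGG

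The 6 regions show how differently the lost bases were placed around a start. At Mfsd7a the peaks covered 1172 bp (Control 1), 1070 bp (Control 2), 347 bp (Snf5 CKO 1) and 263 bp (Snf5 CKO 2), the order kept wherever 4 values follow each other. Both Snf5 CKO peaks lay wholly downstream of this internal start and reached none of the printed bases, of which both Control peaks covered 250. At Igf2 the covered lengths were 1141, 1202, 347 and 231 bp. There the Snf5 CKO peaks lay farther upstream, and the printed bases were covered over 214 bp in Control 1, 250 bp in Control 2 and none in either Snf5 CKO list. At Set the lengths were 1564 and 1563 bp in the Control lists and 476 and 652 bp in the Snf5 CKO lists. The whole printed stretch of Set stayed covered, while the part downstream of its start went from 1059 and 1064 bp in the Control lists to 116 and 299 bp in the Snf5 CKO lists. At Tyro3 the lengths were 1651, 1541, 598 and 630 bp, with both sides of the start shorter in Snf5 CKO. At Spata22 the lengths were 1279, 1235, 746 and 370 bp, and the part downstream of the start measured 587, 543, 299 and 9 bp. Thus the Spata22 peak of Snf5 CKO 2 ended just past the start.

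Several facts of the whole series bear on these lengths. The lists held 39465 and 36730 peaks in Control and 45422 and 28625 in Snf5 CKO, so the Snf5 CKO lists were the longest and the shortest of the 4. The median peak of each list was 576 and 561 bp in Control and 427 and 518 bp in Snf5 CKO. On the autosomes the peaks covered 26.3 and 24.0 Mb in Control and 22.9 and 16.0 Mb in Snf5 CKO. Shorter peaks were thus a feature of the Snf5 CKO lists as a whole and not of the shortened regions alone. The depth of the libraries is unknown, and the length of a called peak can move with depth and background, whose part in the differences was not tested. At the higher end of Smarcb1 both Control lists had a peak, with fold enrichments of 4.37 and 4.19, and both Snf5 CKO lists had none. Among 29 germ cell and pluripotency genes, 24, 21, 21 and 18 had a peak within 1 kb of a gene end in the 4 lists, and 16 had one in all 4. Pou5f1, whose reporter served for the sort, and the germ cell genes Ddx4 and Dazl were among the 16. Tdrd1, Tdrd9 and Piwil4 had one in both Control lists alone, and Dppa4, Nanos3 and Tdgf1 in Control 1 alone. Tfap2c and Dppa2 had one in both Snf5 CKO lists alone and Nanog in Snf5 CKO 1 alone. Markers of other gonadal cells also had peaks there, 12 to 13 of 16 supporting cell genes, 9 to 13 of 19 stromal genes, 8 to 12 of 20 endothelial and blood genes and 3 to 8 of 12 epithelial genes. An open gene end is not a measure of expression, and the part of other cells in the lists was not tested. Near the gene ends, which the shortened regions exclude, 8149 of 10529 kept regions (77.4%) were shorter in both Snf5 CKO lists and 146 (1.39%) were longer.

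In the median shortened region the mean Snf5 CKO length was 67.9% of the mean Control length. The median covered length was 913.5 and 885 bp in the Control lists and 601.5 and 531 bp in the Snf5 CKO lists. Averaged over the libraries, these medians were 899 ± 20.2 bp (SD, n = 2) in Control and 566 ± 49.9 bp (SD, n = 2) in Snf5 CKO. In the other 4801 kept distal regions the medians were 543, 517, 643 and 501 bp, so in the Control lists the shortened regions were the longer ones and in the Snf5 CKO lists both sets had like medians. The median log2 ratio of the mean Snf5 CKO length over the mean Control length was −0.56 in the shortened regions, with quartiles of −0.88 and −0.32. Summed over the shortened regions, the covered length was 2937 and 2856 kb in Control and 2005 and 1871 kb in Snf5 CKO.

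**Figure D1:**
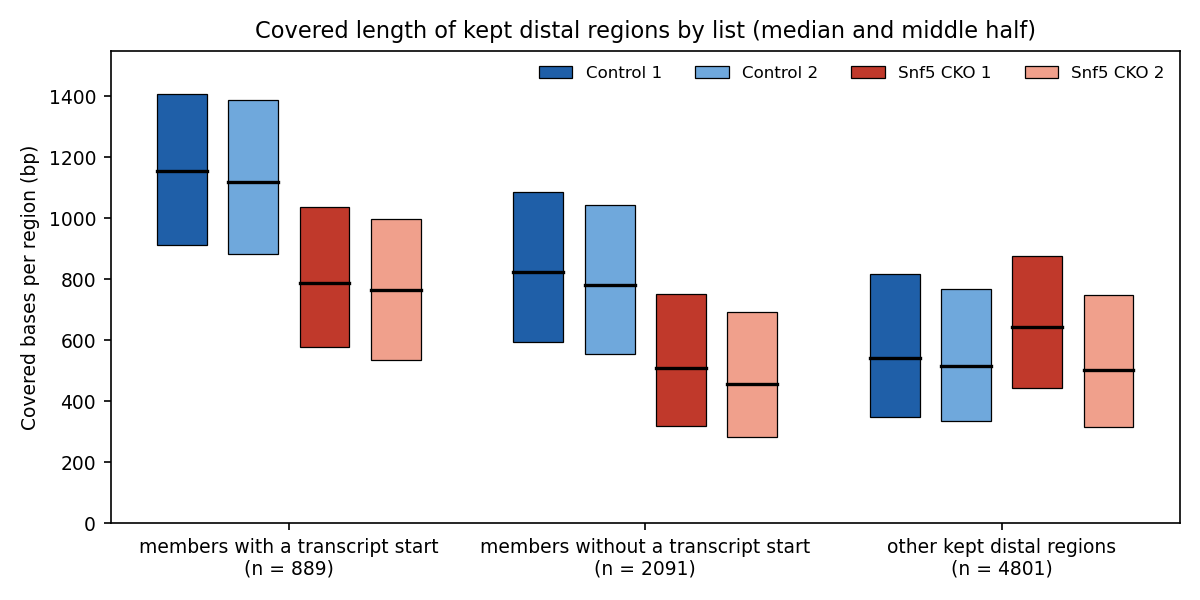
Covered bases per region in each of the 4 lists, for shortened regions with a transcript start (n = 889), shortened regions without one (n = 2091) and the other kept distal regions (n = 4801). Boxes span the lower to the upper quartile and lines mark the median. In the Control lists the medians of the shortened regions with a start were 1155 and 1118 bp, and those of the other kept distal regions 543 and 517 bp.

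The size of the difference varied widely among the shortened regions. The gap between the shorter Control length and the longer Snf5 CKO length had a median of 139.5 bp, or 17.2% of the shorter Control length, while the Control lengths differed from each other by a median of 88 bp and the Snf5 CKO lengths by 83 bp. In 1411 regions (45.8%) the gap exceeded both of these replicate differences. It was at least 10% of the shorter Control length in 2099 regions (68.2%) and under 10 bp in 193 (6.27%). The mean Snf5 CKO length was at most 50% of the mean Control length in 574 regions (18.6%). A single peak in every list made up 2838 of the 3078 regions (92.2%), so few regions held several peaks in any list. The share was much the same among the other kept distal regions (91.8%).

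The rule had no margin, and members beside its boundary were close to non-members. The region nearest to Nek11, a kinase gene, measured 1028 and 1041 bp in Control and 1027 and 349 bp in Snf5 CKO, and one 124 kb from Fgf14 measured 817, 810, 809 and 806 bp. Both had a gap of 1 bp. Just outside the rule, with a gap of 0 bp, a region in the potassium channel gene Kcnh1 measured 270, 270, 269 and 270 bp. Also with a gap of 0 bp, one 194407 bp from Cr2 measured 754, 424, 424 and 417 bp. So did one 170051 bp from Olig3, which encodes a neural transcription factor, with 494, 478, 478 and 200 bp. Requiring the longer Snf5 CKO length to be at most 90% of the shorter Control length left 2099 regions (26.6%). Leaving out any library loosens the rule, since fewer lists must hold a peak and be ordered, and the count of 3078 then rose. The rule found 4323 regions without Control 1 and 4429 without Control 2. It found 5067 without Snf5 CKO 1 and 4647 without Snf5 CKO 2.

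Most of the lost bases lay at the outer edges of the peaks. The bases covered in both Control lists added up to 2611 kb in the shortened regions, of which 1610 kb (61.6%) were covered in all 4 lists and 516.5 kb (19.8%) in neither Snf5 CKO list. Of the bases covered in neither Snf5 CKO list, 94.5% were at an outer edge and 5.46% inside the region, between bases that remained covered. With a single peak in every list in 92.2% of the regions, most loss could only fall at an edge. The 94.5% is thus largely fixed by the shape of the peaks. Bases were lost at both edges in 1115 regions (36.2%) and at 1 edge in 1736 (56.4%). Where the edges together lost at least 100 bp, which was the case in 1676 regions, at least 90% of that loss fell on a single side in 1029. In 40 shortened regions no base was covered in all 4 lists, so there the peaks of the lists overlapped only through one another.

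Although every shortened region lay over 1 kb from the annotated ends of protein-coding genes, many held the start of a transcript, from an internal promoter or a non-coding gene. RefSeq promoter windows, which run from 250 bases before to 50 bases after a start, were compared on 18 autosomes, with chromosome 18 not analysed here. This comparison was added after the values were seen. Of 2980 shortened regions there, 889 (29.8%) overlapped a window, 710 of them that of a protein-coding gene and 179 only that of a non-coding gene. Among the other kept distal regions the share was 7.73%, and among those longer in Snf5 CKO 3.51%. Seen the other way, 71.2% of the 1248 kept distal regions with a start were shorter in both Snf5 CKO lists, against 32.8% of the 6377 without one. The share was 74.7% with a protein-coding start and 60.3% with a non-coding start alone. The label distal therefore covers both internal promoters and regions without an annotated start, and the 710 protein-coding starts lay a median of 6961.5 bp inside their genes (quartiles 2946 and 22500.5 bp).

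The difference between regions with and without a start was present at every distance and at every length. Of kept distal regions 1 to 5 kb from a gene end, 71.7% were shorter where they held a start and 48.5% where they did not. At 5 to 20 kb the shares were 73.4% and 40.5%, at 20 to 100 kb 68.4% and 33.8%, and over 100 kb 65.6% and 14.4%. Thus with a start the share changed little with distance, and without a start it fell from the nearest class to the farthest. Longer regions are more likely to overlap a window and were more often shorter in Snf5 CKO. In 4 classes of equal size by mean covered length, from the shortest to the longest, 37.9%, 57.3%, 70.1% and 78.6% of regions with a start were shorter, against 22.9%, 31.6%, 37.0% and 44.0% without. Regions are not replicates, so these shares are descriptions of 4 lists.

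**Figure D2:**
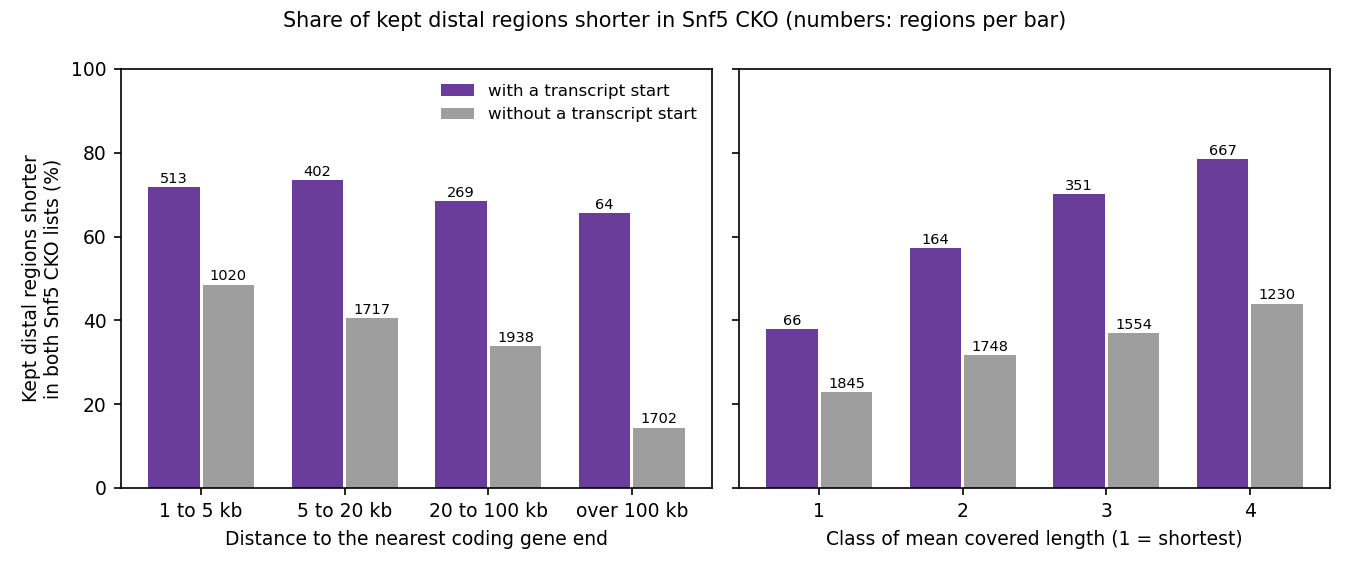
Percentage of kept distal regions that were shorter in both Snf5 CKO lists, with (purple) and without (grey) a transcript start, by distance from the nearest end of a protein-coding gene (left) and by class of mean covered length, 1 being the shortest (right). Numbers above the bars are the regions in each class. In every class the bar for regions with a start is the higher one.

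Position in the gene followed a like pattern. Inside the body of a protein-coding gene lay 1859 of the shortened regions (60.4%), against 37.0% of the other kept distal regions. Of all kept distal regions, 51.2% of those inside gene bodies and 28.7% of those between genes were shorter. Without any start the shares were 41.8% inside gene bodies and 27.0% between genes. The shortened regions lay a median of 12.1 kb from the nearest gene end and the other kept distal regions 37.6 kb. By chromosome the share of kept distal regions that were shorter ran from 30.6% on chromosome 3 to 52.7% on chromosome 19, with 49.7% on chromosome 11.

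Around the 889 starts the peaks lost more on the downstream side than upstream. A single start was used per region, a protein-coding one first and then the one nearest to the middle of the region. The median covered length upstream of the start was 465 and 452 bp in the Control lists and 343 and 311 bp in the Snf5 CKO lists. Downstream it was 642 and 625 bp in Control and 417 and 395 bp in Snf5 CKO. In sum, Snf5 CKO kept 72.7% of the Control length upstream and 66.1% downstream. The downstream part was shorter in both Snf5 CKO lists than in both Control lists at 704 starts (79.2%) and the upstream part at 570 (64.1%). At 500 bp downstream of the start, 70.5% and 69.6% of the regions were covered in Control and 36.3% and 36.2% in Snf5 CKO. At 500 bp upstream, 43.9% and 42.7% were covered in Control and 25.8% and 22.8% in Snf5 CKO.

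**Figure D3:**
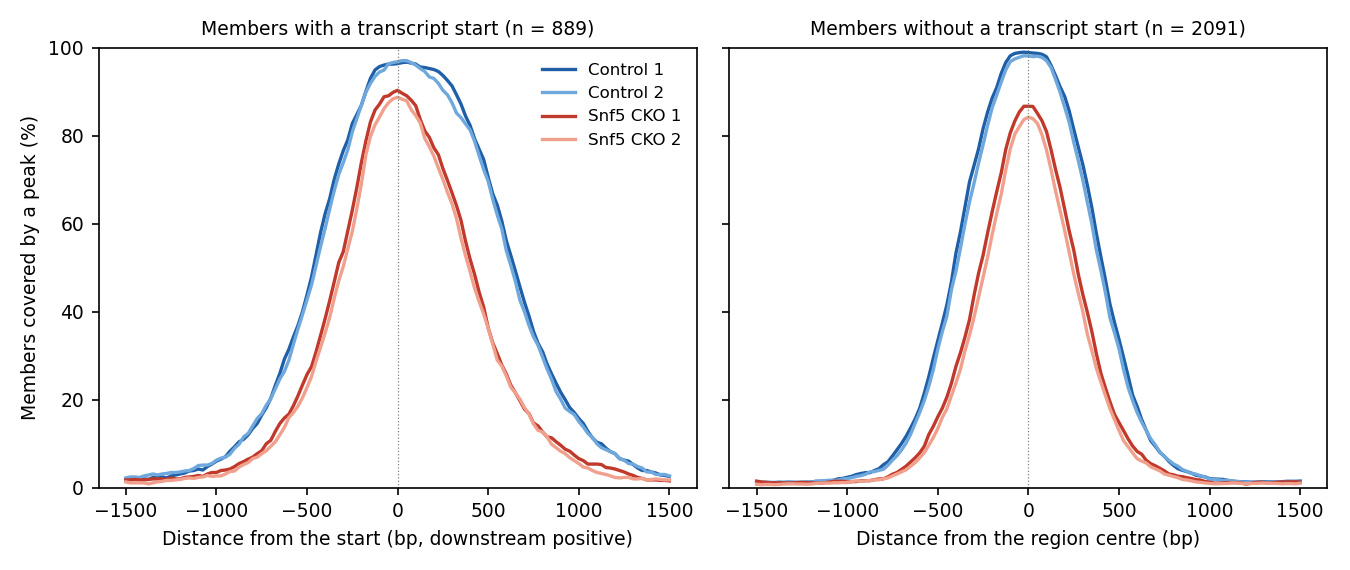
Percentage of shortened regions covered by a peak in each list, by distance from the transcript start (left, n = 889, downstream positive) or from the centre of the region (right, n = 2091 regions without a start). The Snf5 CKO curves are narrower than the Control curves on both sides, and at the start itself they reach 90.3% and 88.8% against 96.4% and 96.9% in Control.

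The start itself mostly remained under a peak. Of 843 starts covered in both Control lists, 757 (89.8%) were covered in all 4 lists and 29 (3.44%) in neither Snf5 CKO list. Besides Mfsd7a, the 29 included Npr2, a natriuretic peptide receptor gene, Tgfb2, which encodes a TGF beta ligand, Ptch1, which encodes the Hedgehog receptor, Bdnf, a neurotrophin gene, Usp7, a deubiquitinase gene, Kmt2d, which encodes a histone H3K4 methyltransferase of enhancers, and Smarcd3, a SWI/SNF subunit gene. They were named after their values were seen. At Npr2 the peaks measured 1384 and 1453 bp in Control and 569 and 556 bp in Snf5 CKO, and downstream of the start 483, 593, 0 and 0 bp. At Kmt2d they measured 1579 and 1654 bp in Control and 1329 and 1135 bp in Snf5 CKO, with 336, 175, 0 and 0 bp downstream. Both genes thus kept their upstream peak and had no covered base after this start in Snf5 CKO.

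The windows at the starts of shortened regions were rich in CpG and in GC boxes. Their median GC content was 64.0%, against 57.7% for the 359 starts in other kept distal regions and 53% for all 31396 autosomal windows. The ratio of observed to expected CpG had medians of 0.783, 0.679 and 0.389 in the same order. Protein-coding starts made up 710 of the 889 and 241 of the 359, and the part of this mix in the differences was not tested. Among protein-coding genes alone, the 710 windows of shortened regions had a median GC content of 64.7% and a CpG ratio of 0.798, against 57% and 0.586 for all 20084 protein-coding windows. The GC box GGGCGG, searched on both strands, was present in 70.5% of the windows of shortened regions, 54.3% of those of other kept distal regions and 35.98% of all windows. Among protein-coding windows it was present in 73.1% of those of shortened regions and 47.0% of all. The TATA box TATAAA was present in 5.29%, 6.13% and 13.6%, and the CCAAT box in 34.8%, 39.3% and 37.3%. The letters CNCCTCAG, a motif of the meiotic factor STRA8, were found in 9.11%, 10.3% and 7.92%, and the E-box CACGTG in 10.1%, 8.36% and 7.14%. GC boxes can overlap one another, and a match is only a description of these letters. Of the starts printed above, Igf2, Tyro3 and Set hold GGGCGG, Igf2 and Tyro3 also hold CNCCTCAG, and Mfsd7a, Set and Spata22 hold CCAAT.

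The 12 regions with the lowest ratio of lengths had log2 ratios from −2.79 to −2.04. The lowest lay inside Trim11, a ubiquitin ligase gene, at chr11:58977101-58978745, with 1594 and 1524 bp in Control and 228 and 223 bp in Snf5 CKO. A region inside Smad4, which encodes the common mediator of TGF beta and BMP signals, measured 2980, 2048, 317 and 525 bp and consisted of 3 and 2 peaks in the Control lists and of 1 in each Snf5 CKO list. A region 13174 bp from Ptf1a, a pancreas and hindbrain transcription factor gene, measured 950, 1212, 200 and 200 bp. One 12354 bp from Onecut1, a homeobox gene, measured 986, 1084, 200 and 220 bp. The regions near Ptf1a, Onecut1 and Gask1a each held the start of a non-coding gene. The shortest peak in every list is 200 bp. In the regions of Trim11, Smad4, Ptf1a and Onecut1 no base was covered in all 4 lists. The others lay at Prkcz, with 1376, 1252, 308 and 207 bp, at Plekha6, at Lck, a T cell kinase gene, at Zc3h12d, an RNase gene of immune cells, and between genes nearest to Gask1a, Vps52, Rab12 and Ropn1l. In none of the 12, which were chosen for their low ratio, did the lengths of the groups come near each other. The smallest gap was 640 bp at Rab12.

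**Figure D4:**
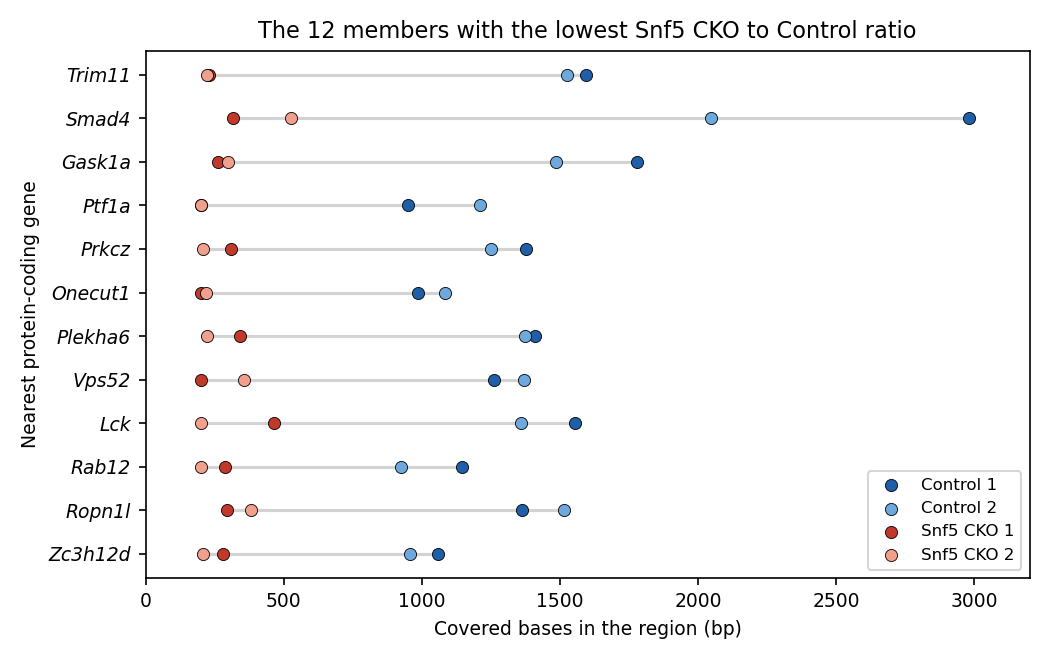
Covered bases in each of the 4 lists for the 12 shortened regions with the lowest ratio of Snf5 CKO to Control length, named by their nearest protein-coding gene. Each point is a list, and grey lines join the lowest and highest of the 4. The Snf5 CKO points lie between 200 and 525 bp and the Control points between 926 and 2980 bp.

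The longest regions in Control were mostly shortened by far less. At Rbpj, which encodes the transcription factor of the Notch pathway, the internal promoter region measured 2554 and 2696 bp in Control and 2104 and 1814 bp in Snf5 CKO. At Hivep2, a zinc finger gene, it measured 2836, 2587, 2322 and 1950 bp. A region inside Cpeb2, which encodes a regulator of mRNA polyadenylation, held the start of another gene and measured 3010, 3003, 2925 and 2794 bp. One inside the potassium channel gene Kcnn2 measured 2636, 2399, 1941 and 1995 bp. A region 163226 bp from Tcte2 measured 2526, 2544, 2486 and 2517 bp. Of the regions listed, only that of Smad4 was both among the 6 longest and among the 12 with the lowest ratio.

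Fold enrichment over background, as the authors' caller gave it for each broad peak, placed the median shortened region at percentiles 67.5, 64.9, 67.2 and 53.6 of its list. Whether this fold moves with the length of a peak was not tested. The median of the highest fold in a shortened region was 4.37 (Control 1), 4.32 (Control 2), 4.73 (Snf5 CKO 1) and 4.53 (Snf5 CKO 2). Each value is to be read within its own list only. In the other kept distal regions it was 4.16, 4.09, 4.57 and 4.34. Regions with a start had 4.58, 4.51, 5.13 and 4.90. The 8 shortened regions with the highest fold in their weakest list had gaps of 1 to 14 bp. In a region 137229 bp from Rab10 the fold was 18.2 to 19.1 and the lengths 414, 413, 410 and 408 bp. Inside Flt1, a VEGF receptor gene, the lengths were 365, 365, 364 and 359 bp. At 456124 bp from Diaph3 they were 323, 324, 319 and 317 bp, and at 173201 bp from Kcnh8 331, 326, 308 and 315 bp. At 258688 bp from Gpd2 they were 405, 399, 393 and 395 bp. At 3064 bp from Tcstv3 they were 389, 391, 371 and 375 bp, and at 262665 bp from Mc2r 402, 412, 395 and 371 bp. The region nearest to Csf2ra, 102613 bp away, measured 572 bp in Control 1 but 449, 445 and 438 bp in the other lists. There the Control lists thus differed from each other more than Control 2 differed from Snf5 CKO.

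Among regulators of meiotic entry, 9 of the 18 kept distal regions nearest to a listed gene were shorter, a share of 50.0% beside 39.1% over all kept distal regions. They lay nearest to Smad4, Bmp4, Max, Mga, Rarb and Rarg, and their median log2 ratio was −0.52. At the internal start of Mga, whose protein pairs with MAX in a repressor of meiotic genes, the lengths were 1211 and 1114 bp in Control and 814 and 910 bp in Snf5 CKO. At a start inside Rarb, a retinoic acid receptor gene, they were 1064, 1063, 993 and 978 bp, a small difference with little spread. A second region of Smad4, 10939 bp from the gene, measured 791, 1296, 375 and 363 bp. In a region 76980 bp from Max the lengths were 568, 586, 510 and 277 bp. At the start of another gene inside Bmp4, which encodes a ligand of germ cell induction, they were 705, 946, 436 and 417 bp. Of 7 regions near genes of the synaptonemal complex and cohesin, 2 were shorter. They lay nearest to Wapl, which releases cohesin, with 903, 1013, 721 and 374 bp, and to Pds5a, its partner, with 494, 399, 265 and 264 bp.

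Of 8 kept distal regions nearest to genes of meiotic recombination, 5 were shorter (62.5%, beside 39.1% overall). Spata22, which loads recombinases with MEIOB, was described with the sequences. Nearest to Prdm9, whose protein marks recombination hotspots, a region measured 681 and 652 bp in Control and 345 and 273 bp in Snf5 CKO. Inside Rec114, which takes part in making double-strand breaks, the lengths were 1095, 794, 618 and 525 bp. Nearest to Hfm1, a crossover helicase gene, they were 718, 605, 474 and 301 bp, in a region that held the start of another gene. The fifth region was nearest to Shoc1. With 8 regions this share rests on few members.

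Germ cell and pluripotency genes had 9 of 22 shorter regions (40.9%), close to the share over all kept distal regions. Inside Tfap2c, which encodes a transcription factor of primordial germ cells, a region measured 1108 and 1492 bp in Control and 586 and 615 bp in Snf5 CKO. Another, 49008 bp from Tfap2c, measured 465, 456, 278 and 285 bp. In a region 5279 bp from Kit, which encodes the receptor for stem cell factor, the lengths were 806, 633, 349 and 324 bp. Of the 3 regions near oocyte genes, 2 were shorter, both nearest to Lhx8, an oocyte homeobox gene. One 33965 bp from the gene measured 825, 848, 758 and 224 bp, and one inside it 959, 877, 657 and 782 bp. In the former the length came close to Control in Snf5 CKO 1 and not in Snf5 CKO 2.

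Among SWI/SNF subunit genes 7 of 21 kept distal regions were shorter (33.3%), beside 39.1% over all kept distal regions. At an internal start of Smarcd3 the lengths were 1152 and 1431 bp in Control and 200 and 942 bp in Snf5 CKO, so the Snf5 CKO lists differed from each other by more than the gap of 210 bp. Farther inside Smarcd3 a region measured 526, 553, 375 and 318 bp. Inside Dpf1 the lengths were 511, 617, 418 and 253 bp, and nearest to Bcl7a 472, 282, 201 and 269 bp. Other chromatin regulators had 11 of 19 shorter (57.9%, beside 39.1% overall), with a median log2 ratio of −0.62, a share that rests on few regions. Of the genes that oxidise methylcytosine, Tet3 measured 1115, 1127, 548 and 763 bp at an internal start and Tet1 788, 813, 440 and 481 bp inside the gene. Inside Chd3, a remodeller gene, the lengths were 282, 425, 213 and 203 bp. The largest proportional difference of the list was inside Chd7, another remodeller gene, with 973, 910, 205 and 353 bp. At starts inside Dnmt3a and Dnmt1, DNA methyltransferase genes picked with their values in view, the lengths were 1125, 1393, 906 and 728 bp and 1178, 1299, 961 and 951 bp.

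Regions near signalling genes were shorter at shares near the 39.1% over all kept distal regions. In the list of TGF beta, BMP and Nodal signalling 11 of 25 regions were shorter (44.0%), with a median log2 ratio of −0.95. Of the ligands, Inhba, which encodes an activin subunit, measured 1245 and 945 bp in Control and 529 and 245 bp in Snf5 CKO at an internal start, and Tgfb2 890, 960, 568 and 258 bp. A region 22565 bp from the receptor gene Tgfbr1 measured 891, 448, 262 and 216 bp. One 66835 bp from the effector gene Smad2 measured 584, 896, 275 and 339 bp. In the Wnt list 10 of 23 were shorter (43.5%), with a median log2 ratio of −0.59. Of transcription factor genes, a region 3258 bp from Lef1 measured 776, 1047, 321 and 284 bp and one inside Tcf7l1 886, 566, 298 and 200 bp. One 6050 bp from the inhibitor gene Dkk1 measured 699, 482, 200 and 255 bp. At a start inside Wnt2 the lengths were 690, 584, 250 and 420 bp. All of these were picked for the lowest log2 ratios of their list. That the shorter Control peak exceeded both Snf5 CKO peaks by 164 bp or more follows largely from this choice.

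For the remaining lists of transcription factors and stress genes the shares lay on both sides of 39.1%. The regions named are again those with the lowest log2 ratios of each list. AP-1 and immediate early genes had 13 of 28 shorter (46.4%), with a median log2 ratio of −0.49. Inside Maff, a small MAF gene, a region measured 850, 949, 422 and 505 bp. At a start inside Nr4a1, an orphan nuclear receptor gene, the lengths were 1039, 1027, 509 and 804 bp. A region 118525 bp from Klf4, which is also on the pluripotency list, measured 1127, 808, 709 and 200 bp. Another, 11782 bp from Klf4, measured 811, 579, 404 and 477 bp. Forkhead, SOX and T-box genes had 23 of 59 (39.0%), with a median log2 ratio of −0.79. Inside Foxn2 the lengths were 658, 868, 200 and 251 bp and inside Sox6 778, 590, 254 and 264 bp. A region 142391 bp from Foxl1 measured 697, 768, 323 and 268 bp. One 26100 bp from T, the brachyury gene, measured 899, 465, 295 and 259 bp. The Sox6 region held the start of the non-coding gene Sox6os. Hox genes had 1 of 4, inside Hoxa3, with 748, 751, 200 and 433 bp. Genes of p53 and the DNA damage checkpoint had 5 of 16 (31.2%). At a start inside Cdkn1a, which encodes the cell cycle inhibitor p21, the lengths were 505, 942, 332 and 384 bp. Nearest to Sesn2 they were 1093, 614, 475 and 422 bp, at Mdm4, which encodes a p53 inhibitor, 787, 1011, 586 and 716 bp, and nearest to Bbc3, which encodes a pro-death protein, 493, 416, 322 and 347 bp. Histone and ribosomal protein genes had 7 of 19 (36.8%), with 1347, 1091, 742 and 670 bp at Rpl19 and 1011, 982, 617 and 628 bp at Rps2. A region 281908 bp from Rps24 measured 670, 936, 515 and 320 bp. At H3f3b, which encodes histone H3.3, the lengths were 1100, 1102, 688 and 743 bp.

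Regions nearest to markers of other gonadal cells were shorter at shares from 30.8% to 50.0%, on both sides of the 39.1% over all kept distal regions. Supporting cell genes had 6 of 12, stromal genes 4 of 13, endothelial and blood genes 8 of 17 and epithelial genes 3 of 7. Runx1, which marks supporting cells and blood, measured 1504 and 1868 bp in Control and 690 bp in each Snf5 CKO list at an internal start. Gata4, a gonadal transcription factor gene, measured 906, 869, 707 and 530 bp inside the gene. Inside Lgr5 the lengths were 710, 509, 301 and 334 bp. Nearest to Amhr2, the receptor gene for anti-Müllerian hormone, they were 732, 412, 289 and 409 bp, with a gap of 3 bp. Of stromal genes, Nr2f1 had 1186, 1344, 920 and 1003 bp in a region 10733 bp away. Inside Nr2f2 the lengths were 1265, 1376, 949 and 1128 bp, and inside Ptch1 1363, 1246, 787 and 775 bp and 434, 447, 339 and 402 bp. Of endothelial and blood genes, Erg had 954, 617, 522 and 486 bp in a region 17313 bp away. Inside Tal1 the lengths were 723, 1052, 518 and 629 bp, and in a second region of Runx1 826, 855, 727 and 584 bp. A region 61832 bp from Pax2, a gene of the mesonephric duct, measured 984, 770, 200 and 276 bp. One 19922 bp from the keratin gene Krt18 measured 887, 578, 437 and 302 bp, and one inside Esr1, an oestrogen receptor gene, 1314, 1203, 1173 and 1114 bp. The part of such cells in the sorted samples was not tested.

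The 3078 shortened regions were spread over 2601 nearest protein-coding genes, of which 2216 had 1 region and 385 had 2 or more. Most regions, 7, were nearest to Alkbh8, at chr9:3000010-3200466 near the start of the chromosome, where 22 kept distal regions lay and the gaps were only 1 to 46 bp. Casz1, a zinc finger gene, had 5, which were all of its kept distal regions, with gaps of 111 to 608 bp and log2 ratios from −1.35 to −0.32. Chd2, a remodeller gene, also had 5 of 5, with gaps of 22 to 124 bp. Frmd4a had 5 of 7, with gaps of 6 to 346 bp, Sp8, a zinc finger gene of limb and brain, 5 of 7, with gaps of 2 to 339 bp, and Zfp993 5 of 6, with gaps of 91 to 502 bp. Castor2 had 4 of 6, with gaps of 24 to 347 bp, and was 1 of 9 genes with 4 regions.

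A few shortened regions contained or adjoined microRNA genes. A hairpin within 5 kb was found for 40 of the shortened regions (1.30%) and for 25 of the other 4801 kept distal regions (0.521%). The mature sequences of 4 hairpins that overlap a shortened region, and of Mir193b, 800 bp from one, are printed because the region can then be tied to a named regulator, and they were chosen after their values were seen. They are from RefSeq, 5′ to 3′, with the seed (bases 2 to 8) in capitals.
mmu-let-7i-5p: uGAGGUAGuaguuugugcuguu
mmu-miR-9-5p: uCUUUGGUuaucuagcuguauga
mmu-miR-203-3p: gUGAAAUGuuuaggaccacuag
mmu-miR-193a-3p: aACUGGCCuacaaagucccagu
mmu-miR-193b-3p: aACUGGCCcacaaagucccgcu

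The 3p arms of Mir193a and Mir193b share the seed ACUGGCC, and the other seeds differ. At Mir193a, inside Rab11fip4, the covered lengths were 1464 and 1125 bp in Control and 474 and 517 bp in Snf5 CKO, a log2 ratio of −1.39. At Mir193b they were 1025, 1125, 969 and 958 bp, a log2 ratio of −0.16. Thus of the pair with a common seed, one region lost most of its length and the other little. At Mir9-3, one of the copies of a neural microRNA, the lengths were 1048, 827, 519 and 523 bp. At Mir203, known from skin, they were 1077, 1087, 682 and 991 bp, and at Mirlet7i, of the let-7 family that LIN28 restrains in germ cells, 1501, 1462, 1201 and 1405 bp. Levels of the microRNAs were not measured here.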

How the data were processed

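The authors deposited 1 list of broad peaks per library, on mm10 per the submitters' processing notes. Those notes name MACS2 2.2.7.1, Bowtie2 2.4.2, Trim Galore 0.6.5, Picard 2.25.2 and SAMtools 1.10 with no roles, and reads of 50 bp. For calling thresholds, duplicate handling and read shifts the sources used here give nothing. Per the file format, each deposited peak has a score, a fold enrichment over background and −log10 p and −log10 q values from the authors' caller. The fold served to describe peaks within a list, and the lowest of a region's 4 folds to choose 8 regions to name. The −log10 q served only as an alternative filter. No read counts were used, so depth is unknown. Peak length can change with depth, background and the caller's linking of nearby enriched stretches.

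Peaks were merged at an overlap of 1 bp, and covered bases per list were counted with Python 3.11.15, pandas 2.3.3 and numpy 2.4.6, and the rule was tested on simulated data. Gene spans were the protein-coding genes of RefSeq GRCm38.p6, the assembly of mm10, and a region overlapping a span counts as at 0 bp from that gene. The table of transcript starts covered 16456 of 20661 autosomal protein-coding genes, and the starts of the others were not analysed here. The nearest gene is not shown to be the target. The regions and the 18 gene lists were chosen with earlier results of these data known, and no test was run. The regions named were the 12 with the lowest log2 ratio, the 6 longest in Control and the 8 with the highest weakest fold. The 3 just inside and the 3 just outside the rule were also named. From each list, up to 4 regions with its lowest log2 ratios were named, so these lean to its most shortened regions. Gm and Rik gene names were left out. The 8 genes nearest to the most regions were named too (ties in alphabetical order). Any other region or start was picked with its values in view.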

Additional observations from a re-analysis of the deposited data

How the results depend on the processing

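The direction of the difference is fixed by the rule, so only counts and sizes can move. Each of 4 results was recomputed under 12 alternatives, and 10 of the 12 gave a number of shortened regions within 1.5 times 3078. Leaving out 1 library gave 4323 to 5067 regions, with 5067 without Snf5 CKO 1 and 4647 without Snf5 CKO 2, since fewer lists must be ordered. It gave shares of 45.4% to 61.3% of kept distal regions, median log2 ratios of −0.55 to −0.47 and 53.4% to 56.7% inside gene bodies. The share of kept distal regions that were shorter, 39.1%, rose to 43.8% when every peak needed a −log10 q of 3 or more, and was 41.6% with lists of the same length, 37.3% over 2 kb and 34.7% over 5 kb from gene ends, and 26.6% with the 10% margin. That margin moved the median log2 ratio to −0.72 and the share inside gene bodies to 63.0%, which was 57.4% over 2 kb and 53.2% over 5 kb from gene ends. With the replicate block, which compares same-numbered libraries only, 3691 regions (46.8%) were shorter and 57.8% lay inside gene bodies. The length ratio of Control 1 to Control 2 did not vary with that of Snf5 CKO 1 to Snf5 CKO 2 (correlation −0.03 over kept distal regions). This value cannot show whether same-numbered libraries share a litter or batch, on which the labels give nothing. Under all 12 alternatives a larger share of regions with a transcript start than without one was shorter, at least 1.52 times as large, with 53.04% to 85.8% against 21.6% to 56.5%. Peaks are 200 bp or longer in these lists, depth is unknown, and each group has 2 libraries.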

Other observations

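The X chromosome is outside the rule and was examined after the values were seen. Of its 547 kept distal regions, 161 (29.4%) were shorter in both Snf5 CKO lists and 104 (19%) were longer. With a transcript start, 46 of 64 were shorter. The median lengths of the 161 regions were 910 and 919 bp in Control and 633 and 596 bp in Snf5 CKO, and their median log2 ratio was −0.47. The lowest ratios on the X were found nearest to Rhox7a, a reproductive homeobox gene, with 1320, 1204, 235 and 436 bp, and nearest to Kdm6a, which encodes a histone H3K27 demethylase, with 752, 1006, 275 and 252 bp.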
